A study of Homo sapiens with 18 samples.

Results

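The G1 kinases and their regulators comprised 8 genes, namely the cyclin-dependent kinases CDK2, CDK4 and CDK6, the kinase inhibitors CDKN1B (p27), CDKN1C (p57), CDKN2C (p18) and CDKN2D (p19), and the phosphatase CDKN3. They were taken by gene symbol from the platform annotation. Of these, 7 genes had probe sets named for them, 21 probe sets of 54675 on the array, and all 7 were among the 13607 genes that passed the low-value filter of 19775 genes measured. CDKN2C was not analysed here. Expression was measured on 18 Affymetrix arrays in 6 groups of 3, in LNCaP, a prostate cancer line that responds to androgen, and in LNCaP-abl, its derivative that grows without androgen. Per the labels, all groups were transfected for 48 h with either a control siRNA or an siRNA that targets TRIM24, a chromatin reader and nuclear receptor cofactor, and all were hormone-starved for 48 h in charcoal-treated serum. The LNCaP groups received control siRNA or TRIM24 siRNA, each with vehicle (ethanol) or with 10 nM of the androgen DHT for 24 h, and the LNCaP-abl groups received either siRNA with vehicle. Each line is a single cell line, so an effect of androgen independence cannot be told apart from other differences between LNCaP and LNCaP-abl. Whether the 3 arrays of a group stand for separate cultures is not stated in the labels. The p-values therefore reflect only the array-to-array spread, which may be technical.

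The G1 phase ends when cyclin D with CDK4 or CDK6, and then cyclin E with CDK2, phosphorylate the retinoblastoma protein and release E2F factors. The INK4 inhibitors CDKN2C and CDKN2D bind CDK4 and CDK6, while the CIP/KIP inhibitors CDKN1B and CDKN1C bind cyclin-CDK complexes more broadly. CDKN3 is a phosphatase that dephosphorylates CDK2 and CDK1, and its transcript is known to peak late in the cell cycle. In bulk RNA, fewer cells in a phase of the cycle and less RNA per cell cannot be told apart.

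The promoters of CDKN3, which fell after knockdown, and of CDK4 and CDK6, which rose in LNCaP, are shown because these members moved in opposite directions. Each sequence is the 250 bases before the gene's start in RefSeq, build GRCh38.p14, read in the direction of the gene, and capitals mark matches to the motifs searched. CDKN3 lies on the plus strand, and its window is chr14:54396757-54397006. CDK4 lies on the minus strand, with the window chr12:57752311-57752560. CDK6 lies on the minus strand, with the window of its first start at chr7:92836574-92836823.
CDKN3: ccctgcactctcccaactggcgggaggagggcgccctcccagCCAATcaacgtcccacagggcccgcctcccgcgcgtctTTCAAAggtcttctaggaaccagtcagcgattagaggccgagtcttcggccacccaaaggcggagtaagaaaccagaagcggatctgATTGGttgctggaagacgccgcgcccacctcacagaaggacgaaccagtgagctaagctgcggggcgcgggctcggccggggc
CDK4: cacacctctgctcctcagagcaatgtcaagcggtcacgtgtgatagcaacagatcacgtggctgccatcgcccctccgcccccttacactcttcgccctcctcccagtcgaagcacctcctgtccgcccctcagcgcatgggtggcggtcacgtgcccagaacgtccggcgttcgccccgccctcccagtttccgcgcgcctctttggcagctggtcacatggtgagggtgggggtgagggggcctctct
CDK6: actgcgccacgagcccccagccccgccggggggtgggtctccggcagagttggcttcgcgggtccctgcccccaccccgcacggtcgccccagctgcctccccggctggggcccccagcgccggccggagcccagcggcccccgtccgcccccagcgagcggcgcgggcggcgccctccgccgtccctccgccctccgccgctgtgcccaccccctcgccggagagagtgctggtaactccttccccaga
The motifs searched on both strands were 3 E2F motifs (TTTCCCGC, TTTGGCGC and TTTCGCGC), the cell cycle homology region TTTGAA and the CCAAT box. The CDKN3 window held the reverse complement of the homology region, TTCAAA, starting 170 bases before the start, a CCAAT box at 208 and the reverse complement of a CCAAT box, ATTGG, at 83. The CDK4 and CDK6 windows shown held no match. Over the 35116 windows of the table, 13.3% held the homology region, 32% a CCAAT box, 4.69% both and 2.32% an E2F motif. Of the other members, CDKN1B held 2 CCAAT boxes, CDKN2D held 1, and CDKN2C held 1 in 1 of its 3 windows. For CENPU, CDCA3 and PTTG1, the genes whose pattern over the arrays was most like that of CDKN3, each window held a CCAAT box and none held the homology region, and the CENPU window also held 1 E2F motif. These matches describe the letters of these windows only. CDK2 and CDKN1C had no entry.

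The targeted gene checked the labels. TRIM24 lay between 9.69 and 9.71 (log2, RMA) in LNCaP with control siRNA and vehicle and between 7.69 and 7.73 with TRIM24 siRNA, a fall of 2.00 ± 0.054 (SE). It fell by 2.14 under DHT and by 2.08 in LNCaP-abl. Arrays of a group correlated at 0.9963 or above, and array medians ranged from 5.826 to 5.929. Of 6 luminal prostate markers measured, KRT8, KRT18, HOXB13 and TMPRSS2 had group means above 9.6 in every group, while the androgen-induced KLK3 ranged from 5.70 to 14.12 and KLK2 from 4.98 to 10.51. Of markers of other cell types, the basal keratins KRT5 (5.57 to 5.77) and KRT14 did not pass the filter, nor did CHGA, COL1A2, LUM, FAP and PTPRC (3.29 to 3.48). The neuroendocrine markers ENO2 (7.29 to 8.37), NCAM1 (6.27 to 7.03) and SYP (6.24 to 6.36), the fibroblast markers COL1A1 (7.24 to 7.49) and DCN (from 5.80 up), and CD3E (5.76 to 5.90), PECAM1 (6.05 to 6.22) and VWF (6.25 to 6.67) did pass it, and their part in the members' values was not tested. The log2 ratio of 3' to 5' signal, a measure of RNA and labelling quality, was taken for GAPDH and ACTB. The GAPDH ratio went with knockdown from 0.52 to 0.59 in LNCaP with vehicle. It went from 0.56 to 0.63 under DHT and from 0.56 to 0.64 in LNCaP-abl. ACTB shifted more, from 1.87 to 2.05 with vehicle, from 1.85 to 2.19 under DHT and from 1.87 to 1.99 in LNCaP-abl. With the mean of both ratios as a covariate, CDK2, CDK4, CDK6 and CDKN3 kept their calls in both LNCaP knockdown comparisons. CDKN2D with vehicle (limma adjusted p = 0.108) and CDK2 in LNCaP-abl (limma adjusted p = 0.138) lost theirs.

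Knockdown of TRIM24 in LNCaP was followed by higher transcript levels of all 3 kinases, with or without DHT, and by a lower level of CDKN3. In LNCaP-abl none of the kinases was called higher, CDK2 and CDKN1B were called slightly lower, and CDKN3 fell further. CDK4 was 0.11 higher there and just missed the threshold (limma adjusted p = 0.0515), while both CDK6 group means were below the filter value. The CDK2 call in LNCaP-abl depended on single arrays and on processing, as given below. Tests used limma on all 18 arrays, with Benjamini-Hochberg adjustment over the 13607 genes, and calls were made below an adjusted p of 0.05. With vehicle, 4 of 7 members were higher and 1 was lower, where 20.5% of all genes were called higher and 18% lower. Under DHT, 3 were higher and 1 lower, where 19.4% of genes were higher and 20.8% lower. In LNCaP-abl, 0 were higher and 3 lower, beside 16.7% and 28.8% of genes. The members' median log2 fold change was 0.21, 0.14 and -0.13 in these 3 comparisons, and that of all genes was 0.00, 0.01 and -0.01. At an unadjusted p below 0.05, CDK4 was also higher in LNCaP-abl.

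**Figure D1:**
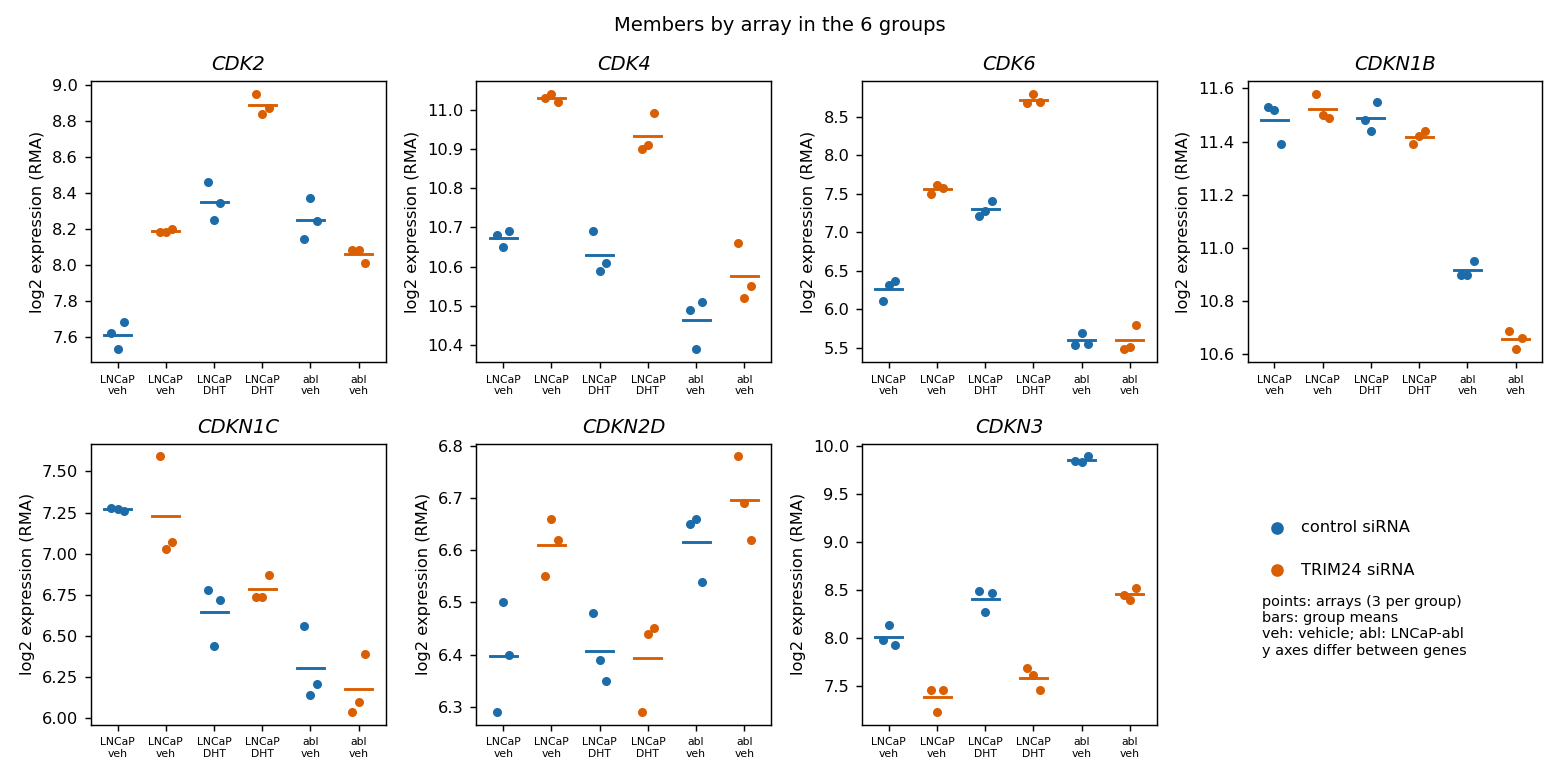
RMA log2 expression (y axis, differing between panels) of each member in the 6 groups (x axis), with 1 point per array and a bar at the group mean. CDK2, CDK4 and CDK6 sit higher with TRIM24 siRNA (orange) than with control siRNA (blue) in both LNCaP conditions, while CDKN3 sits lower with TRIM24 siRNA in all 3 pairs.

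CDK6, which partners D-type cyclins, changed most among the kinases. Its values were 6.10, 6.31 and 6.36 with control siRNA and vehicle, 7.50, 7.62 and 7.58 with TRIM24 siRNA and vehicle, 7.21, 7.28 and 7.41 with control siRNA and DHT, and 8.68, 8.80 and 8.69 with both TRIM24 siRNA and DHT. These 4 groups did not overlap, and the arrays with TRIM24 siRNA and DHT were the highest of the 18. Knockdown raised CDK6 by 1.31 ± 0.084 with vehicle (2.48-fold, limma adjusted p = 4.61e-09) and by 1.42 under DHT (2.68-fold, limma adjusted p = 1.82e-09). DHT raised it by 1.04 with control siRNA and by 1.16 with TRIM24 siRNA, and the difference between the knockdown effects with and without DHT was 0.12 (95% interval -0.14 to 0.37, limma adjusted p = 0.596).

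In LNCaP-abl the CDK6 values were 5.54, 5.69 and 5.55 with control siRNA and 5.48, 5.51 and 5.79 with TRIM24 siRNA. Both groups had a mean of 5.59, below the value of 5.8791 used as the low-value filter, and they overlapped. The knockdown effect there was 0.00 (95% interval -0.18 to 0.18), and whether dimness of the probe set hides a change was not tested. Against LNCaP with control siRNA and vehicle, CDK6 was lower in LNCaP-abl (-0.66 as measured, limma adjusted p = 3.26e-06), a difference that is inexact because the LNCaP-abl group was below the filter value. The next brightest CDK6 probe set gave -0.23 (adjusted p = 0.11), with both group means below the filter value (5.38 in LNCaP-abl and 5.61 in LNCaP). The other set with a mean of 5.91 gave 0.09, with group means of 5.89 and 5.80 close to that value. The mean of all sets gave -0.21, still called.

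The array holds 7 probe sets for CDK6, and they did not all behave alike. The one used, with a mean of 6.84 over all arrays, was followed by another with a mean of 6.18, which rose by 0.82 with vehicle and 1.28 under DHT. For this second set the difference between the knockdown effects with and without DHT was 0.46 ± 0.167 (limma adjusted p = 0.11). It was 0.12 for the set used. A dim one with a mean of 4.58 passed the filter only through the 3 LNCaP arrays with TRIM24 siRNA and DHT, at 6.49, 6.23 and 6.42, and its other 15 arrays were at or below 4.98, so no test of it is given. Another that passed the filter, with a mean of 5.91, changed by 0.06 and 0.04 and was not called. The mean of all CDK6 probe sets gave a smaller rise with vehicle, 0.49, still called.

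**Figure D2:**
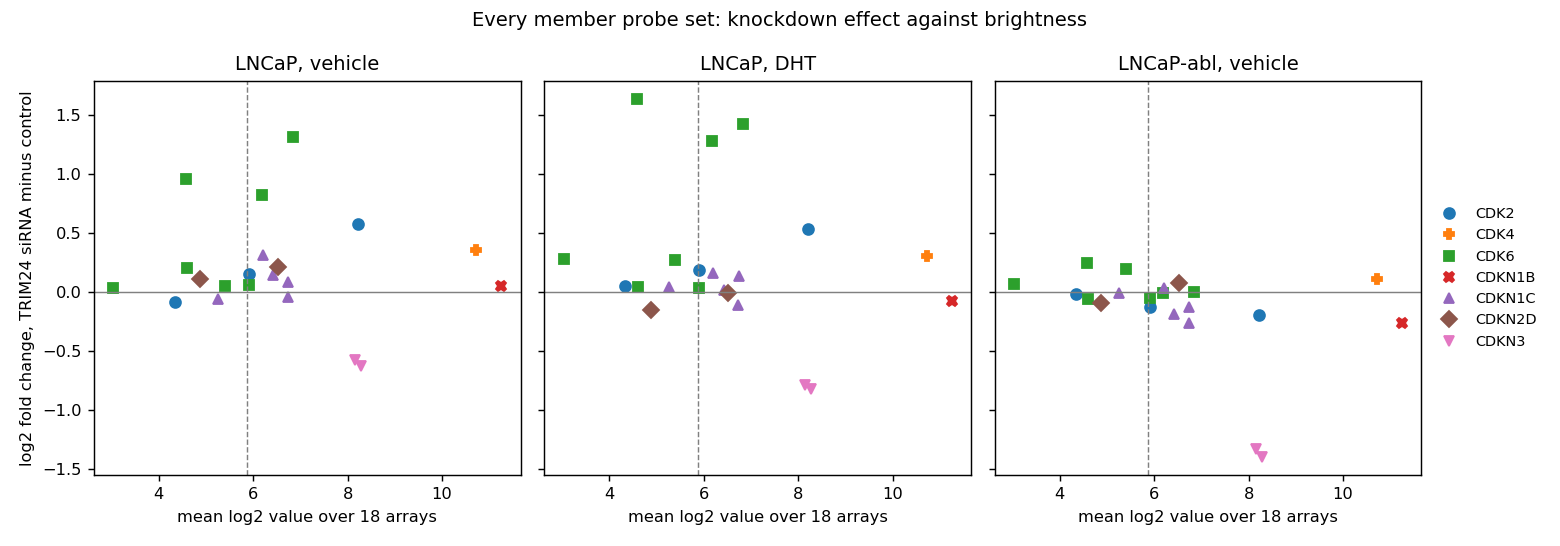
Log2 fold change after TRIM24 knockdown (y axis) against the mean log2 value over 18 arrays (x axis) for the 21 member probe sets in the 3 knockdown comparisons; the dashed line marks 5.8791, which a probe set's third-highest array had to reach to be tested. The CDK6 probe sets spread from 0.04 to 1.31 with vehicle, and both CDKN3 probe sets lie below 0 in each panel.

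CDK2, the kinase of the G1 to S transition, was 7.62, 7.53 and 7.68 in LNCaP with control siRNA and vehicle and 8.18, 8.18 and 8.20 with TRIM24 siRNA and vehicle. With DHT it was 8.46, 8.25 and 8.34 with control siRNA and 8.95, 8.84 and 8.87 with TRIM24 siRNA. Neither pair overlapped. Knockdown raised CDK2 by 0.58 ± 0.06 (1.49-fold, limma adjusted p = 1.18e-06) and by 0.54 under DHT (limma adjusted p = 2.42e-06), and DHT raised it by 0.74 with control siRNA and by 0.70 with TRIM24 siRNA. The difference between the knockdown effects was -0.04 (95% interval -0.22 to 0.14). Another CDK2 probe set that passed the filter, with a mean of 5.91, changed by 0.16 and 0.18 and was not called. The mean of the 3 CDK2 probe sets gave a rise of 0.22 with vehicle and 0.26 under DHT, both still called.

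In LNCaP-abl CDK2 was 8.14, 8.37 and 8.24 with control siRNA and 8.08, 8.08 and 8.01 with TRIM24 siRNA. The groups did not overlap, and the fall of 0.19 was called (limma adjusted p = 0.0149). That call was lost without LNCaP-abl control replicate 2 (-0.13, adjusted p = 0.0879), without LNCaP-abl TRIM24 siRNA replicate 3 (-0.17, adjusted p = 0.0571), with quantile normalization (-0.10, adjusted p = 0.138) and with the mean of the probe sets (adjusted p = 0.0928). CDK2 was 0.64 higher in LNCaP-abl than in LNCaP, both with control siRNA and vehicle. The mean of its probe sets gave 0.305, still called.

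CDK4 had the smallest rise of the 3 kinases. It was 10.68, 10.65 and 10.69 with control siRNA and vehicle against 11.03, 11.04 and 11.02 with TRIM24 siRNA, a rise of 0.36 ± 0.044 (1.28-fold, limma adjusted p = 6.99e-06). Under DHT it was 10.69, 10.59 and 10.61 against 10.90, 10.91 and 10.99, a rise of 0.31 (limma adjusted p = 3.26e-05). Neither pair overlapped, and DHT itself moved CDK4 by -0.04 with control siRNA (95% interval -0.14 to 0.05). In LNCaP-abl it was 10.49, 10.39 and 10.51 against 10.66, 10.52 and 10.55, which did not overlap. That difference of 0.11 (95% interval 0.02 to 0.20) missed the threshold at an adjusted p of 0.0515. It passed in 6 other ways of processing or fitting the same arrays, among them quantile normalization (adjusted p = 0.0185), and when either LNCaP-abl control replicate 3 or LNCaP-abl TRIM24 siRNA replicate 2 was left out (adjusted p = 0.04 and 0.0316).

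CDKN1B, the p27 inhibitor of CDK2 complexes, was nearly level in LNCaP. It was 11.53, 11.52 and 11.39 with control siRNA and vehicle and 11.58, 11.50 and 11.49 with TRIM24 siRNA, groups that overlapped (difference 0.05, 95% interval -0.05 to 0.14). Under DHT the difference was -0.08 (95% interval -0.17 to 0.01, limma adjusted p = 0.178), not called although the groups did not overlap. In LNCaP-abl it was 10.90, 10.90 and 10.95 with control siRNA and 10.69, 10.62 and 10.66 with TRIM24 siRNA, with no overlap and a fall of 0.26 ± 0.043 (0.836-fold, limma adjusted p = 0.000149). CDKN1B was also 0.56 lower in LNCaP-abl than in LNCaP with control siRNA and vehicle.

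CDKN1C, the p57 inhibitor, was not called in any knockdown comparison as fitted. It was 7.28, 7.27 and 7.26 with control siRNA and vehicle and 7.59, 7.03 and 7.07 with TRIM24 siRNA, where 1 array stood above the others. Its knockdown effects were -0.04, 0.14 and -0.13 in the 3 comparisons, with 95% intervals of -0.34 to 0.26, -0.16 to 0.44 and -0.43 to 0.17. When 3' to 5' signal entered the fit, it was called lower with vehicle (-0.42, adjusted p = 0.0466) and in LNCaP-abl (-0.42, adjusted p = 0.0218). Across its 5 probe sets the effect with vehicle ranged from -0.06 to 0.31. Of the 2 probe sets whose names carry no mark of shared sequence, the brighter gave 0.31 and the other, below the filter, -0.06. The first was called when each gene was represented that way (limma adjusted p = 0.0494).

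DHT lowered CDKN1C by 0.63 with control siRNA (6.78, 6.44 and 6.72, limma adjusted p = 0.00163) and by 0.44 with TRIM24 siRNA (6.74, 6.74 and 6.87, limma adjusted p = 0.0171). The first call differed between probe sets: the set used has a mean of 6.74 and another a mean of 6.73, and the latter changed by -0.17 (adjusted p = 0.344). With TRIM24 siRNA that second set was called lower (-0.37, adjusted p = 0.041), and a dimmer one, whose name carries no mark of shared sequence, was called lower in both (-0.55, adjusted p = 0.00132, and -0.70, adjusted p = 0.000156). A further set, with a mean of 6.43, was called in neither (-0.11, limma adjusted p = 0.59, and -0.23, limma adjusted p = 0.235). For the set used, the call with TRIM24 siRNA was lost without LNCaP TRIM24 siRNA vehicle replicate 1 (-0.27, adjusted p = 0.107) and without LNCaP TRIM24 siRNA DHT replicate 1 or 2 (adjusted p = 0.0519 and 0.0522). CDKN1C was 0.97 lower in LNCaP-abl than in LNCaP, and all 4 of its probe sets that passed the filter were lower there, with differences of -0.43 to -1.40. The set that gave -1.40 had a mean of 5.37 in LNCaP-abl, below the filter value, so that difference is inexact.

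CDKN2D, the p19 inhibitor of CDK4 and CDK6, was 6.29, 6.5 and 6.4 with control siRNA and vehicle and 6.55, 6.66 and 6.62 with TRIM24 siRNA, with no overlap and a rise of 0.21 (limma adjusted p = 0.0124). That call was lost without LNCaP control vehicle replicate 1 (0.16, adjusted p = 0.0716) and without LNCaP TRIM24 siRNA vehicle replicate 2 (0.19, adjusted p = 0.0528). Its effect was -0.01 under DHT (95% interval -0.14 to 0.12) and 0.08 in LNCaP-abl (95% interval -0.05 to 0.21). DHT changed it by 0.01 with control siRNA and by -0.21 with TRIM24 siRNA (limma adjusted p = 0.0105), and the latter call was lost without LNCaP TRIM24 siRNA DHT replicate 1 (-0.16, adjusted p = 0.0625). It was 0.22 higher in LNCaP-abl than in LNCaP with control siRNA and vehicle.

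**Figure D3:**
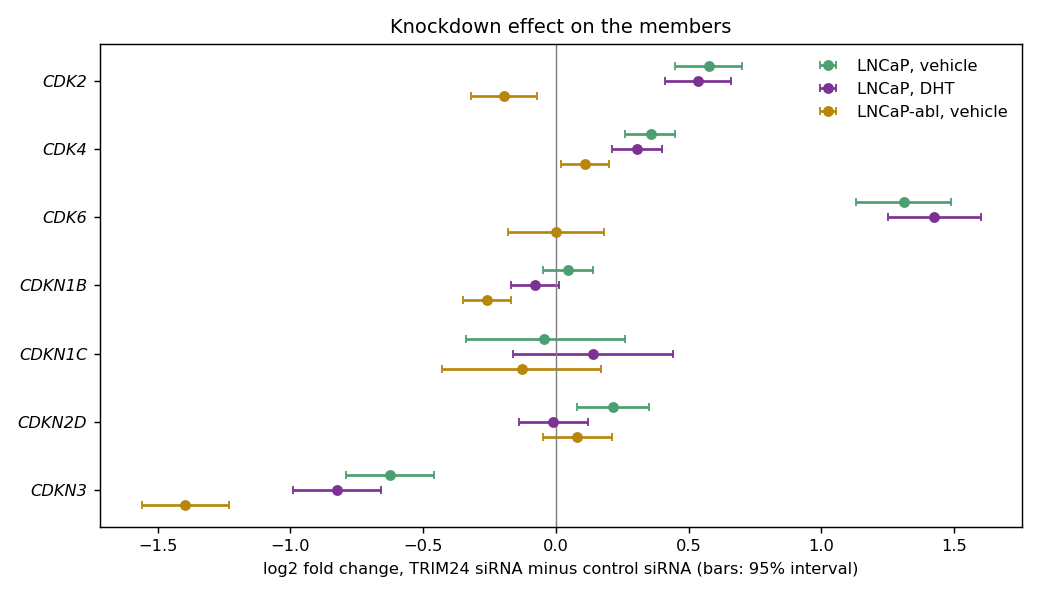
Log2 fold change of each member after TRIM24 knockdown (x axis) with its 95% interval, in LNCaP with vehicle, in LNCaP with DHT and in LNCaP-abl. The kinases lie at 0.31 to 1.42 in LNCaP and at -0.19 to 0.11 in LNCaP-abl, while CDKN3 runs from -0.63 to -1.40.

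CDKN3 fell in every knockdown comparison. It was 7.98, 8.13 and 7.93 against 7.46, 7.23 and 7.46 with vehicle, 8.49, 8.27 and 8.47 against 7.69, 7.61 and 7.46 under DHT, and 9.84, 9.83 and 9.89 against 8.45, 8.39 and 8.52 in LNCaP-abl. None of these pairs overlapped. CDKN3 fell by 0.63 ± 0.078 (0.648-fold, limma adjusted p = 7.99e-06), fell by 0.82 (0.565-fold, limma adjusted p = 3.69e-07) and fell by 1.40 (0.38-fold, limma adjusted p = 7.82e-10). The second CDKN3 probe set fell by 0.58, 0.79 and 1.33.

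DHT raised CDKN3 by 0.40 with control siRNA (limma adjusted p = 0.000495). With TRIM24 siRNA the difference of 0.20 was barely past the threshold (limma adjusted p = 0.0468), the groups touched at 7.46, and the call was lost in 11 of 22 alternatives. The second CDKN3 probe set, with a mean of 8.15, gave 0.38 with control siRNA (limma adjusted p = 3.48e-05). With TRIM24 siRNA it gave 0.17 (limma adjusted p = 0.0223), and its groups did not overlap. CDKN3 was 1.84 higher in LNCaP-abl than in LNCaP with control siRNA and vehicle, 3.58-fold, the largest difference of any member in that comparison.

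The summed pattern of DHT and of the line can be read against the background. In LNCaP with control siRNA, DHT was followed by 3 members higher and 1 lower, beside 19.4% and 26.4% of all genes. With TRIM24 siRNA it was followed by 3 higher and 3 lower, beside 16.9% and 26.6%, but this count ranged from 2 to 5 when single arrays were left out, with 2 without LNCaP TRIM24 siRNA DHT replicate 1 and 3 without replicate 2. LNCaP-abl differed from LNCaP for all 7 members, 3 higher and 4 lower, where 29.1% and 34.6% of genes were called. CDKN1B under DHT with TRIM24 siRNA, at -0.11 (limma adjusted p = 0.0494), was lost when any 1 of the 6 arrays compared was left out.

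The knockdown effect differed between lines for 5 members, each lower in LNCaP-abl than in LNCaP with vehicle, where 8.60% of genes had a higher and 19.9% a lower effect. The difference was -1.31 for CDK6, -0.77 for CDK2, -0.25 for CDK4, -0.31 for CDKN1B and -0.77 for CDKN3. With the mean of each gene's probe sets the difference was -0.44 for CDK6 (adjusted p = 0.00116) and -0.33 for CDK2 (adjusted p = 0.00382), both still called. The interaction of knockdown with DHT was called for 0 of 7 members, beside 5.38% of genes higher and 5.70% lower. For CDKN2D it was -0.22 (95% interval -0.41 to -0.04, limma adjusted p = 0.118). By the probe sets used, an unadjusted p below 0.05 held for CDKN2D alone among the members. The next brightest CDK6 probe set gave 0.46 ± 0.167 (limma adjusted p = 0.11).

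The partners of these kinases were taken from lists of pathway genes, whose counts stand beside the shares of all genes called that are given above; no test compared the lists with the kinases. Of 11 cyclins and CDK activators tested, 3 rose and 6 fell with vehicle, 1 rose and 6 fell under DHT, and 9 fell in LNCaP-abl. CCND1, the cyclin D1 partner of CDK4 and CDK6, fell by 1.25, 1.08 and 1.01, and CCNA2, the cyclin A partner of CDK2, by 0.97, 1.12 and 2.11. With vehicle CDC37 rose by 0.191 and MNAT1 fell by 0.294. CDC25A fell by 0.922 under DHT and by 0.667 in LNCaP-abl. CCNH fell by 0.34 under DHT, and CCNE2 fell by 0.913 in LNCaP-abl. Of 12 genes of inhibitor turnover and control, 6 rose and 1 fell with vehicle, 4 rose and 4 fell under DHT, and 1 rose and 8 fell in LNCaP-abl. The 4 that fell under DHT became 1 without LNCaP control DHT replicate 3, 2 without control DHT replicate 1 or TRIM24 siRNA DHT replicate 2, and 1 with 3' to 5' signal in the fit, where the 4 that rose also became 1. The 1 that rose in LNCaP-abl became 2 without LNCaP-abl TRIM24 siRNA replicate 2. UHMK1, a kinase that phosphorylates p27, fell by 1.22, 1.26 and 0.81, and SKP2, the p27 ubiquitin ligase subunit, rose by 0.43 with vehicle and by 0.19 under DHT but fell by 0.20 in LNCaP-abl. MYC rose by 0.444, 0.625 and 0.231, and FBXW7 rose by 0.358 with vehicle and by 0.19 under DHT. CKS1B rose by 0.267 under DHT and fell by 0.683 in LNCaP-abl, where CKS2 fell by 0.977.

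Of 13 RB and E2F genes, 2 fell with vehicle, 2 rose and 3 fell under DHT, and 2 rose and 7 fell in LNCaP-abl. The 2 that rose in LNCaP-abl became 1 without LNCaP-abl control replicate 2 or 3 or TRIM24 siRNA replicate 2 and 0 without TRIM24 siRNA replicate 3, and with 3' to 5' signal in the fit 0 rose there or under DHT. E2F5 fell by 0.61, 0.58 and 0.92. Under DHT RBL2 rose by 0.305 and TFDP2 by 0.196, the latter depending on the probe set. In LNCaP-abl E2F8 fell by 1.766 and RBL1 by 1.094. Of 3 other CDK inhibitors, 0 were called with vehicle as fitted (0 at an unadjusted p under 0.05) and 1 was called lower under 5 alternatives, among them the mean of probe sets. CDKN1A (p21) and CDKN2A fell by 0.12 and 0.45 under DHT, and this count of 2 became 1 without any single array of that comparison except LNCaP TRIM24 siRNA DHT replicate 1, without which it was 0. In LNCaP-abl CDKN1A rose by 0.15. CDKN2A and CDKN2B fell by 0.41 and 0.31 there, with overlapping groups and, for CDKN2B, both groups below the filter value, but CDKN2A was not called without LNCaP-abl control replicate 1 or 2 or TRIM24 siRNA replicate 1 (-0.18, adjusted p = 0.169), nor CDKN2B without control replicate 2 or 3 or TRIM24 siRNA replicate 3 (-0.21, adjusted p = 0.13). Of 14 other CDKs, 2 rose and 5 fell with vehicle, 4 fell under DHT, and 1 rose and 6 fell in LNCaP-abl. The 2 that rose with vehicle became 1 without LNCaP TRIM24 siRNA vehicle replicate 2, the 1 that rose in LNCaP-abl became 0 without LNCaP-abl TRIM24 siRNA replicate 2, and 1 rose under DHT without LNCaP control DHT replicate 3. CDK1, the mitotic kinase, fell by 0.23, 0.45 and 1.51.

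Genes of mitosis and of S phase were counted beside CDKN3, and the shares of all genes called are those just given. Of 20 mitosis genes, 16 fell with vehicle, 17 under DHT and 19 in LNCaP-abl. Of 19 S phase genes, 5 rose and 3 fell with vehicle, 3 rose and 7 fell under DHT, and 19 fell in LNCaP-abl. The 5 that rose with vehicle became 3 without LNCaP control vehicle replicate 1 or TRIM24 siRNA vehicle replicate 1 or 3. With 3' to 5' signal in the fit, they became 2, and the counts under DHT became 1 and 3. The mean of the mitosis genes went from 6.81 to 6.35 with vehicle, from 7.15 to 6.5 under DHT and from 8.51 to 6.90 in LNCaP-abl, and CDKN3 followed the same order of falls. The S phase mean was 8.21 in both LNCaP vehicle groups, although 5 S phase genes rose and 3 fell between them. CDKN3, CDK2, CDK4, CDK6 and CDKN2D were also called different between these groups. The S phase mean went from 8.41 to 8.27 under DHT and from 9.15 to 8.24 in LNCaP-abl, so its falls under DHT and in LNCaP-abl ran in that order too. The part of a change in cell cycle distribution in these members' values was not tested.

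**Figure D4:**
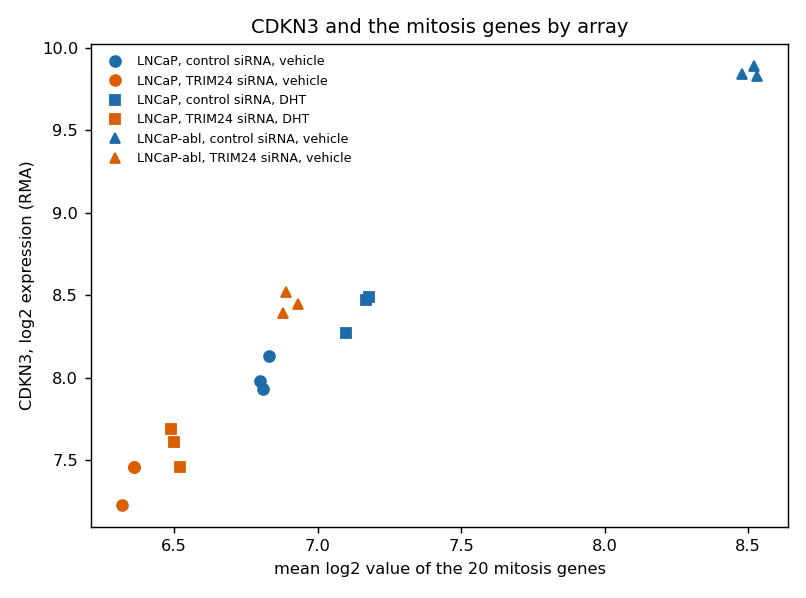
CDKN3 (y axis, RMA log2) against the mean log2 value of the 20 mitosis genes (x axis), 1 point per array. The LNCaP-abl control arrays lie apart at 9.83 to 9.89, and the LNCaP arrays with TRIM24 siRNA lie lowest.

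Across the 6 groups, CDK6 was ordered from LNCaP with TRIM24 siRNA and DHT (mean 8.73) through TRIM24 siRNA and vehicle (7.57), control and DHT (7.30) and control and vehicle (6.26) to both LNCaP-abl groups (5.59), and only the last neighbours overlapped. CDK4 was highest in the LNCaP groups with TRIM24 siRNA, at 11.03 with vehicle and 10.94 with DHT, followed by control and vehicle at 10.67 and control and DHT at 10.63, which overlapped. For CDKN1B the 4 LNCaP groups, at 11.42 to 11.53, each overlapped the next LNCaP group in the order, and both LNCaP-abl groups lay below them. The control and TRIM24 siRNA groups under DHT, not neighbours in that order, did not overlap for CDKN1B. For CDKN3, LNCaP-abl with TRIM24 siRNA (8.45) overlapped LNCaP with control siRNA and DHT (8.41).

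By Pearson correlation over the 18 arrays, given as a description because arrays of a group share their condition, the genes most like each member were as follows. CDK6 was closest to TNKS1BP1 (0.981), NARF (0.979) and PAQR4 (0.971), and CDK2 to MRPS26 (0.965), FZD1 (0.953) and LPIN1 (0.946). CDK4 was closest to GEMIN6 (0.971), SDCCAG8 (0.969) and GPN2 (0.966). CDKN1B was closest to SNHG19 (0.990), DNAJA1 (0.990) and TTBK2 (0.989), CDKN1C to CLYBL (0.947), PKIA (0.939) and FRMD6 (0.937), and CDKN2D to MIEF1 (0.891), UNC119 (0.882) and FBXO32 (0.880). CDKN3 was closest to CENPU (0.995), CDCA3 (0.990) and PTTG1 (0.989).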

How the data were processed

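Total RNA from 18 samples was labelled and hybridised to Affymetrix arrays, per the labels' protocols. The authors deposited log2 values, which the submitters' processing notes credit to RMA; no version was given in the sources used here. Probe sets were named from the platform annotation (41097 of 54675 had 1 symbol), and each gene took its brightest probe set. Genes whose third-highest array was under 5.8791, the median of the table, were left out. Group means were fitted on all arrays with limma 3.58.1 in R 4.3.3 (12 residual degrees of freedom), and 8 contrasts were tested with Benjamini-Hochberg adjustment. In simulated data with 13607 genes, 95 of 100 genes changed by 0.5 and 59 of 100 changed by 0.25 were recovered for knockdown with vehicle. Recovery was 93 and 47 under DHT and 91 and 62 in LNCaP-abl. Only those genes were changed in each simulation, far fewer than the 5236 called in the data with vehicle. The threshold on p was therefore stricter there, and the rates do not give the sensitivity of this fit. The number of arrays limits the precision. Named genes were all members, TRIM24 and the 3 genes most correlated with each member. From the lists, a selection was named from the up to 4 called genes with the smallest adjusted p per list and comparison. For a gene so named, values from other comparisons may be given too. Members and lists were chosen with earlier results of these data known. Deviations of same-numbered arrays of different groups correlated at -0.297 to 0.196, with 3 of 18 pairs over 0.1. Differently numbered arrays were not compared, so these values cannot show whether the numbers mark pairs. The labels do not say that a number marks a shared culture or day, so it was not a block in the main fit.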

Additional observations from a re-analysis of the deposited data

Results flagged for a closer look

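The knockdown effect differed between LNCaP-abl and LNCaP with vehicle, by the test of the interaction, for 5 members. The differences (LNCaP-abl effect minus LNCaP effect, log2) were -1.31 for CDK6, -0.77 for CDK2, -0.25 for CDK4, -0.31 for CDKN1B and -0.77 for CDKN3. With the mean of each gene's probe sets they were -0.44 for CDK6 and -0.33 for CDK2. For CDK6 both LNCaP-abl groups were below the low-value filter.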

How the results depend on the processing

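Over 56 member results and 1292 values under the alternatives, 1186 kept direction and side of the threshold, 57 lost a call, 13 gained one and 36 changed sign, 0 of these for a result that was called. Requiring a log2 change of 0.5 left 3 members called for knockdown with vehicle, 1 in LNCaP-abl and 2 for DHT with TRIM24 siRNA. It left 3 for the difference in knockdown effect between lines. Of all 13607 genes, it left 371 higher and 489 lower for knockdown with vehicle and 157 higher and 712 lower in LNCaP-abl. For DHT with TRIM24 siRNA it left 697 higher and 756 lower, and for the difference between lines 96 higher and 501 lower. Also lost were CDK4 for knockdown under DHT (0.31), CDKN3 for DHT with control siRNA (0.40), and CDK4 (-0.21) and CDKN2D (0.22) for LNCaP-abl against LNCaP. An adjusted p under 0.01 left 2 for DHT with TRIM24 siRNA, beside 1874 genes higher and 2833 lower of 13607. It also lost CDKN2D for knockdown with vehicle (limma adjusted p = 0.0124) and CDK2 for knockdown in LNCaP-abl (limma adjusted p = 0.0149). Leaving out single arrays gave 2 to 5 members for DHT with TRIM24 siRNA, with 2 without TRIM24 siRNA DHT replicate 1 and 3 without replicate 2. Of 13607 genes, 2084 were higher and 3236 lower without that replicate 1, and 2144 higher and 3183 lower without replicate 2. With the replicate block, 4 members were called in LNCaP-abl (CDK4 gained, adjusted p = 0.0415) and 4 for DHT with TRIM24 siRNA (CDKN1B and CDKN3 lost, adjusted p = 0.0617 and 0.0519), and other member counts did not change. With that block, 2216 of 13607 genes were higher and 3853 lower for knockdown in LNCaP-abl. For DHT with TRIM24 siRNA, 2278 were higher and 3571 lower.

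Quantile normalization was run in 2 versions: the planned version keeps each gene's probe set, a choice made after a first version, which chose the brightest anew on the normalized values, had been seen. In that first version, kept as an alternative added after seeing the data, CDKN1C moved to another probe set and lost its DHT calls (-0.16, adjusted p = 0.379 with control siRNA and -0.34, adjusted p = 0.0564 with TRIM24 siRNA), and its values turned to 0.079 and -0.105 for knockdown with vehicle and DHT and -0.184 for their difference.

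The other sign changes of members were of results that were not called. CDKN1C for knockdown with vehicle was 0.088 by the mean of probe sets and 0.31 by the most variable and the unmarked probe set, which in LNCaP-abl gave 0.034 and for the interaction with DHT -0.15 (mean of probe sets -0.037). With 3' to 5' signal in the fit, CDKN1C was -0.49 for knockdown under DHT, -0.066 for the interaction with DHT and 0.001 for that with the line, and CDK6 in LNCaP-abl was -0.11; the latter was -0.039 with median centring and -0.053 with either quantile version. CDKN1B for DHT with control siRNA was -0.035 (quantile, both) and -0.018 (array weights), and CDK2 for the interaction with DHT was 0.041 (mean of probe sets). TRIM24 for the interaction of knockdown with the line was 0.016 (quantile, both). For TFDP2, called in each of these comparisons as fitted (0.20, -0.41 and -0.26), the value was -0.01 for knockdown under DHT (unmarked probe set), 0.029 for DHT with control siRNA and 0.125 with TRIM24 siRNA (most variable probe set). With single arrays left out, the ranges were -0.222 to 0.056 (CDKN1C, knockdown with vehicle), -0.041 to 0.039 (CDKN2D, knockdown under DHT) and -0.099 to 0.058 (CDK6, knockdown in LNCaP-abl). They were -0.033 to 0.040 and -0.044 to 0.065 for CDKN1B and CDKN2D (DHT with control siRNA). For interactions of knockdown they were -0.090 to 0.013 (CDK2, with DHT) and -0.191 to 0.094 (CDKN1C, with the line). The cause was not tested.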
